A study of Mus musculus with 16 samples.

Results

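Levels of 39 genes of glycolysis and of the hypoxia response were followed through a time course of c-Raf activation in mouse embryonic stem cells. The genes were taken from a list of names, drawn up with earlier results of these data known, and each was read from the probe with the highest mean signal for that gene. Of the 20972 genes with a named probe, 15660 passed the filter on dim probes and were tested, among them 38 of the 39. Mxi1, which encodes an antagonist of Myc, was not well above background on any of the 16 arrays and was not tested. The other 38 were above background on all 16 arrays. By role the list held 4 transporters, 17 enzymes of the glycolytic chain, 3 enzymes that regulate it, 4 genes of the hypoxia-inducible factor (HIF) and its prolyl hydroxylases, and 11 further hypoxia response genes.

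The cells were of 1 line, E14tg2a, an embryonic stem cell line grown here on gelatin with serum and the cytokine LIF. Per the series' design text they carry c-Raf, the kinase that feeds into Erk, as a fusion that tamoxifen switches on and that is then constitutively active. There were 8 groups of 2 arrays: DMSO, cells given vehicle only, then 0h, cells given 250 nM PD173074 (an inhibitor of FGF receptors) for 24 hours and not induced, and then 30m, 1h, 2h, 4h, 8h and 24h, cells given the same inhibitor and then 250 nM 4-hydroxytamoxifen (4OHT) for the time named, with the inhibitor still present. All 8 groups carried the fusion, and the labels used here do not say what drives it or whether the line is 1 clone. Cells without the fusion, and cells given 4OHT without the inhibitor, were not analysed here. Per the labels the 4OHT groups had 24 hours of inhibitor before 4OHT, so they were under it for longer than 0h. No group had the inhibitor alone for these longer times. Time on 4OHT, time under the inhibitor and time in culture therefore cannot be told apart. Nothing in the labels says whether a group's 2 replicates were separate cultures, and the p-values therefore rest on a spread that may be technical.

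Glycolysis breaks glucose down to pyruvate in the cytosol, and pyruvate is then either reduced to lactate and exported or carried into mitochondria and oxidised. When oxygen is low, the alpha subunits of HIF escape hydroxylation by the Egln prolyl hydroxylases, are no longer degraded, and bind the core sequences ACGTG and GCGTG near many genes of glucose uptake, glycolysis, lactate handling and blood vessel growth. Embryonic stem cells are known to draw much of their ATP from glycolysis also when oxygen is present. Growth factor signalling through Erk is known in other cells to act on several of the same genes.

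Each level below is the log2 of an array's processed signal minus that array's 75th percentile, so that 0 marks a probe as bright as that percentile, and levels are compared only within 1 gene. Between 54.9% and 67.2% of probes were well above background per array, the 75th percentile lay between 441 and 653 signal units, no spot was saturated, and the number of arrays limits the precision. The table of values and the scanner files disagreed on which sample 8 of the 16 arrays held, and the table's headings were followed. Under them replicate 1 of every group lay on slide 1 and replicate 2 on slide 2. The slides differed within groups: 14 of the 38 genes were brighter on slide 1 in all 8 groups, Hk1 and P4ha2 were brighter on slide 2 in all 8, and the median difference over the 38 genes was 0.24. Each comparison was therefore fitted without and with the replicate number, which is also the slide, as a block. In the text a gene rose or fell where limma's adjusted p over all 15660 genes was under 0.05 without the block, and calls that needed the block are given as such with both adjusted p-values. The SE after a change is always that of the fit without the block, so it is not the one behind an adjusted p with the block. In bulk RNA, fewer cells of a type and less RNA per cell cannot be told apart. The 8 stem cell markers listed, Nanog, Pou5f1 and Sox2 among them, were above background on all 16 arrays.

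At 24h against 0h, 4 of the 38 genes rose and 5 fell. The risers were Car9, Vegfa and Adm, genes of pH control and blood vessels that HIF is known to induce, and by a small margin Pfkm, a phosphofructokinase. The genes that fell were Ldhb, the lactate dehydrogenase subunit of oxidative tissues, Hk1, a hexokinase, Slc2a3, a glucose transporter, and P4ha2 and Kdm3a, enzymes of collagen and of chromatin that HIF is also known to induce. The share called, 9 of 38 or 23.7%, equalled the 23.7% called among all genes tested (10.7% higher and 13.0% lower), so the list was called as often as genes in general. Its median log2 change was -0.07, against -0.01 over all genes tested. With the replicate block 6 were higher and 7 lower, against 39.5% of all genes (18.3% higher and 21.3% lower).

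Promoters are printed for the 4 genes called at 24h that had a single promoter in the table, 2 that rose and 2 that fell, and for Ldha as an uncalled counterpart of Ldhb, so that the HIF core can be read beside the direction. RefSeq promoters (build GRCm38.p6) run from 250 bases before to 50 after a gene's start, and 36 of the 39 genes, all but Slc2a3, Epas1 and Ndrg1, were matched to 54 of them. Capitals mark ACGTG or GCGTG on either strand, where adjoining matches share bases or run together. Car9, which rose, has its promoter at chr4:43506776-43507075 on the plus strand with 1 match. Adm, which rose, has its promoter at chr7:110627407-110627706 on the plus strand with 2. Ldhb, which fell, has its promoter at chr6:142507908-142508207 on the minus strand with 1. P4ha2, which fell, has its promoter at chr11:54100674-54100973 on the plus strand with 4. The first of 2 promoters of Ldha, which was not called, is at chr7:46845554-46845853 on the plus strand with 7, counting both strands.
Car9: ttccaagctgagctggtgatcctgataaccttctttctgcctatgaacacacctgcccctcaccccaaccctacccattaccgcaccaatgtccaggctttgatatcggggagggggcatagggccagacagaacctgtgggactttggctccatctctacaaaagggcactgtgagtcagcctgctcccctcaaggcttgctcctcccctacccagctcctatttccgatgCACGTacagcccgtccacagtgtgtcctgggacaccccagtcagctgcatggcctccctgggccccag
Adm: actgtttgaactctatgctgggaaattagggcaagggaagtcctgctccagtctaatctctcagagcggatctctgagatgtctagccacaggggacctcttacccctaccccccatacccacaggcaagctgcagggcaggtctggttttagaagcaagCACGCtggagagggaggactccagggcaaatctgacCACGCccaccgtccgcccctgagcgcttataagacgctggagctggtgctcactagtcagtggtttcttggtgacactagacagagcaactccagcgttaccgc
Ldhb: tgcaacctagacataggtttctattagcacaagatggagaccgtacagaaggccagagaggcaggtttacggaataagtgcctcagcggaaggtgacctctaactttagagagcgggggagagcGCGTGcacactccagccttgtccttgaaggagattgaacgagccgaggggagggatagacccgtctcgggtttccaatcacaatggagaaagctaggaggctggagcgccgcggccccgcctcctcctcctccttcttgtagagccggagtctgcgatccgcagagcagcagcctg
P4ha2: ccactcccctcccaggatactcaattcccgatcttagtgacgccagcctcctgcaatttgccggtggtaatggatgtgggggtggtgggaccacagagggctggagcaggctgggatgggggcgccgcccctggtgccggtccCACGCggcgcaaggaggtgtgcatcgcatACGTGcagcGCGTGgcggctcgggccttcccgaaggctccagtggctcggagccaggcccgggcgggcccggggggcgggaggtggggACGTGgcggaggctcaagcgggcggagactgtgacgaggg
Ldha: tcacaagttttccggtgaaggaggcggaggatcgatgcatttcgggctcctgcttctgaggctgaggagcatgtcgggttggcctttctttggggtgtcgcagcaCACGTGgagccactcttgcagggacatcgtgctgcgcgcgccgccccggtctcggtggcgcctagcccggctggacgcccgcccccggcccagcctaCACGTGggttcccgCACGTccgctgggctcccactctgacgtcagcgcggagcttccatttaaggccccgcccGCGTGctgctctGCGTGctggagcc
The 4 called genes with several promoters are not printed: of these windows 1 of 2 for Vegfa and for Hk1, 3 of 4 for Pfkm and 1 of 3 for Kdm3a held a match. A match to these letters was thus present in promoters of genes that rose, that fell and that were not called. Over the list 42 of 54 promoters (77.8%) held ACGTG or GCGTG, against 14380 of 32851 (43.8%) promoters in the table, and 29 of 54 (53.7%) held ACGTG, against 19.6%. GCGTG was held by 29 of 54 (53.7%), against 32.4%. Some windows of 1 gene overlap, as for Pfkm, Eno1 and Aldoa, so that the same match can be counted more than once. The share over all promoters was not matched for base composition. Many genes of the list are known HIF targets, and a match describes letters and not binding.

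The other comparisons called few of the 38 genes. At 30m and at 1h none passed, as none of all genes did (0%), and with the block 0% and 0.0192% of all genes passed (0.0192% higher and 0% lower at 1h). At 2h none passed, against 0.115% of all genes (0.102% higher and 0.0128% lower), nor with the block, against 0.485% (0.383% higher and 0.102% lower). Unadjusted p-values under 0.05 were held by 0 of the 38 genes at 30m, 2 at 1h and 2 at 2h. At 4h Ndrg1 fell and no other gene of the list was called, against 3.18% of all genes (1.44% higher and 1.74% lower), and with the block 2 were higher and 3 lower, against 16% (7.58% higher and 8.44% lower). At 8h none passed in limma's fit, with 3 at an unadjusted p under 0.05, against 6.74% of all genes (3.13% higher and 3.61% lower), and with the block 3 were higher and 2 lower, against 21.0% (8.33% higher and 12.7% lower). At 0h against DMSO Pfkm fell, against 3.50% of all genes (2.22% higher and 1.28% lower), and with the block 2 were higher and 3 lower, against 15.0% (8.35% higher and 6.62% lower). Read against the whole array, the genes of glycolysis and hypoxia were called about as often as other genes at 24h, and their counts at earlier times were near or below the background.

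**Figure D1:**
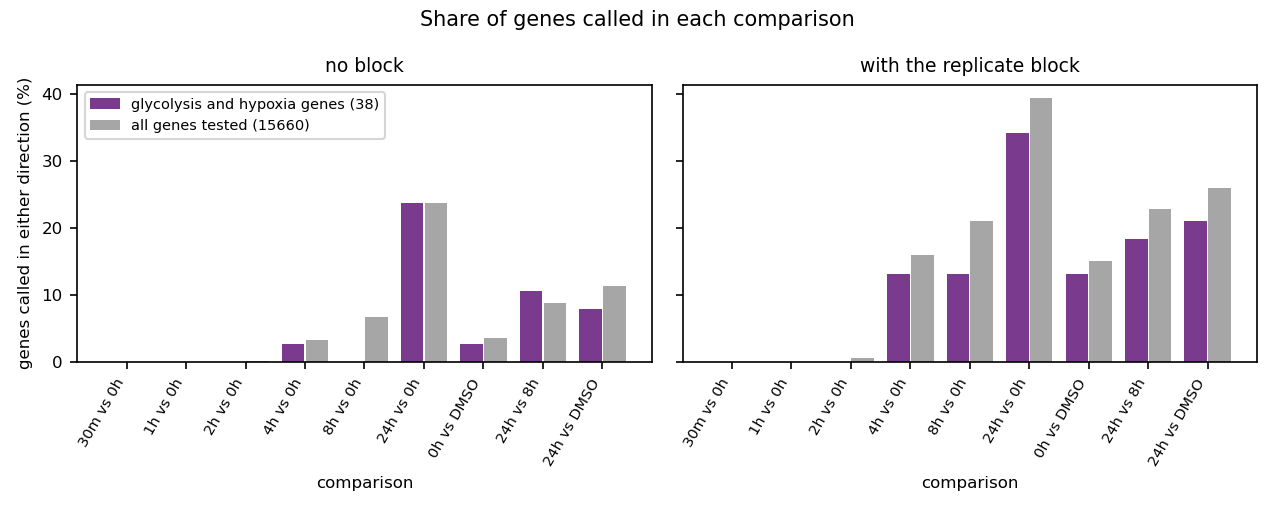
Percent of genes called at an adjusted p under 0.05 in each comparison, for the 38 tested glycolysis and hypoxia genes and for all 15660 genes tested, in the fit without the replicate block (left panel) and with it (right panel). At 24h against 0h both bars stand at 23.7% without the block.

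Glucose enters cells through the facilitative transporters encoded by Slc2a1 and Slc2a3, and lactate leaves through those encoded by Slc16a1 and Slc16a3. Slc2a3 had levels of 6.37 and 5.78 in DMSO, 6.87 and 6.63 at 0h, 6.92 and 6.66 at 30m, 6.97 and 6.47 at 1h, 7.08 and 6.43 at 2h, 7.22 and 6.49 at 4h, 6.44 and 6.56 at 8h and 5.06 and 5.30 at 24h. Both 24h arrays lay below all 14 others, which stood between 5.78 in DMSO and 7.22 at 4h. Slc2a3 fell by 1.57 ± 0.31 (SE) on the log2 scale at 24h against 0h, 2.98-fold lower, at an adjusted p of 0.00471, and the call held without each of the 4 arrays in turn. The 0h arrays stood above those of DMSO, by 0.68 ± 0.31 on the log2 scale, which was not called (adjusted p = 0.285). Slc2a1 had levels of 6.30 and 6.10 in DMSO, 6.25 and 5.80 at 0h, 6.18 and 5.81 at 30m, 5.80 and 5.57 at 1h, 6.54 and 5.57 at 2h, 7.10 and 6.09 at 4h, 6.72 and 6.53 at 8h and 6.62 and 6.20 at 24h. Its lowest arrays were replicate 2 of 1h and of 2h, and its highest was 4h replicate 1, while 4h replicate 2 lay among the values of 0h. No comparison called it in either fit, and its changes ran between -0.34 ± 0.37 at 1h and 0.60 ± 0.37 at 8h, both against 0h. Neither lactate transporter was called in any comparison, and at 24h against 0h Slc16a1 differed by 0.00 ± 0.22 and Slc16a3 by 0.14 ± 0.74. Slc16a3 had the largest slide difference of the list, a mean of 1.07 between replicates 1 and 2.

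Glucose is trapped in the cell by hexokinases, of which Hk1 is the widely expressed form and Hk2 the form most often induced by HIF. Hk1 had levels of 3.32 and 3.87 in DMSO, 4.69 and 5.0 at 0h, 4.49 and 4.83 at 30m, 4.22 and 4.81 at 1h, 4.40 and 4.70 at 2h, 3.72 and 4.33 at 4h, 2.77 and 4.01 at 8h and 2.98 and 3.16 at 24h. It was highest in the 0h, 30m, 1h and 2h arrays, which did not overlap the DMSO, 4h, 8h or 24h arrays except that 1h replicate 1, at 4.22, lay below 4h replicate 2, at 4.33. Hk1 fell by 1.77 ± 0.39 at 24h against 0h (adjusted p = 0.00843), 3.42-fold lower. The call did not hold without 24h replicate 1 (adjusted p 0.0615) or without 0h replicate 2 (adjusted p 0.0588). The 3 further differences of Hk1 that passed did so with the block alone. Its change was -0.82 ± 0.39 at 4h (adjusted p = 0.295 without the block and 0.0334 with it), -1.45 ± 0.39 at 8h (adjusted p = 0.0537 without the block and 0.00261 with it), and 1.25 ± 0.39 in 0h over DMSO (adjusted p = 0.121 without the block and 0.0062 with it). The difference of 24h over DMSO was -0.52 ± 0.39, which was not called (adjusted p = 0.457). A second, dimmer Hk1 probe differed by -1.28 at 24h and -0.89 at 8h against 0h. Hk2 had levels of 3.71 and 4.05 in DMSO, 4.20 and 4.25 at 0h, 3.95 and 4.17 at 30m, 3.57 and 4.06 at 1h, 4.05 and 4.17 at 2h, 4.32 and 4.55 at 4h, 4.63 and 4.49 at 8h and 3.99 and 4.39 at 24h, with its lowest array at 1h and its highest at 8h. No comparison called Hk2, and its change at 24h against 0h was -0.04 ± 0.20.

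**Figure D2:**
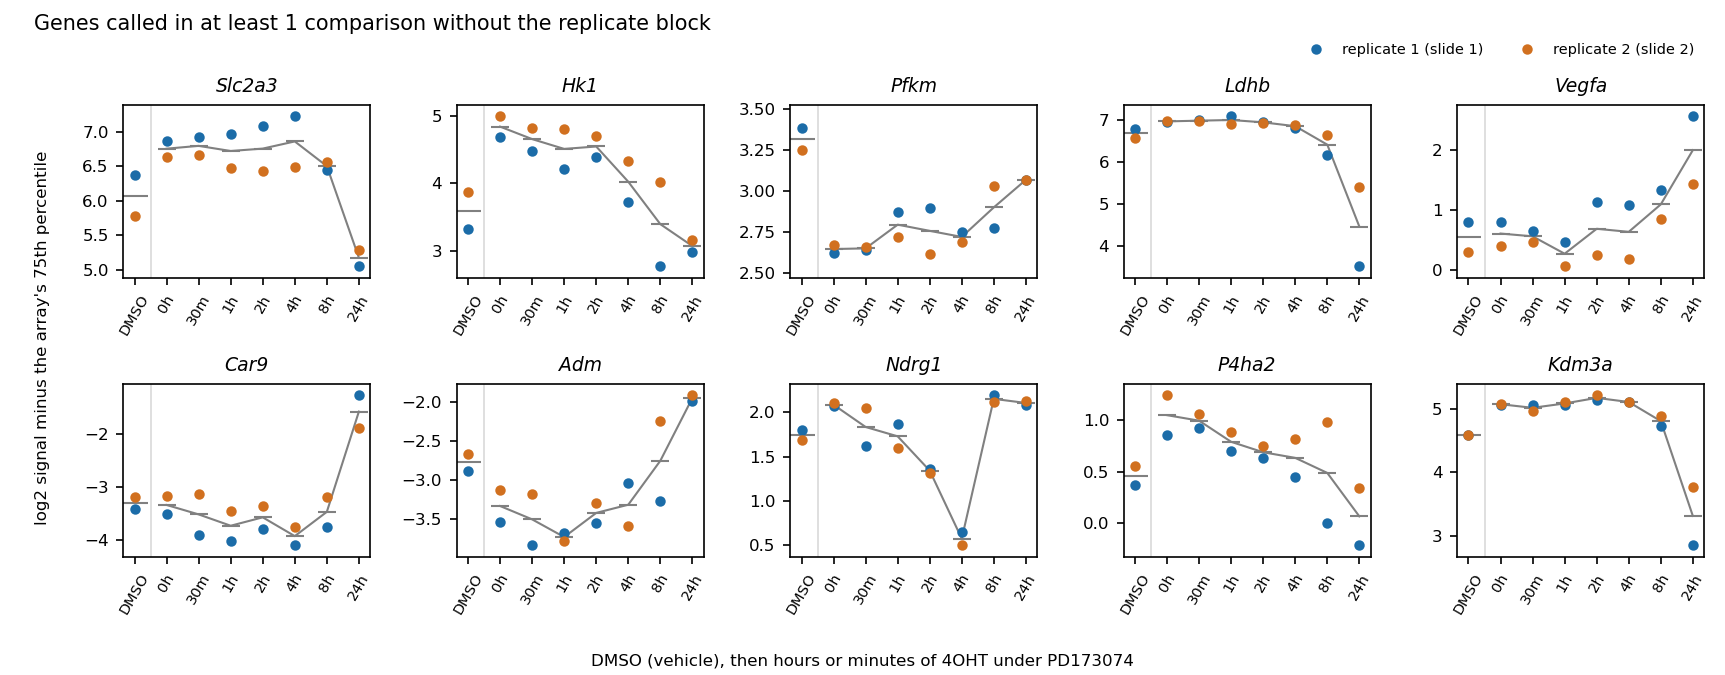
Log2 level (log2 of the processed signal minus each array's 75th percentile, y axis of each panel) of the 10 genes called in at least 1 comparison without the replicate block, by group from DMSO and 0h to 24h of 4OHT (x axis), with 1 point per array coloured by slide, a bar at each group mean and a line through the means of 0h to 24h. Car9, Vegfa and Adm are highest at 24h, Ldhb, Kdm3a and Slc2a3 are lowest at 24h, and Ndrg1 is lowest at 4h.

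Phosphofructokinase commits sugar to glycolysis and is built from the subunits encoded by Pfkl, Pfkm and Pfkp, and the glucose-6-phosphate isomerase encoded by Gpi1 acts just before it. Pfkm had levels of 3.38 and 3.25 in DMSO, 2.62 and 2.67 at 0h, 2.65 and 2.66 at 30m, 2.87 and 2.72 at 1h, 2.90 and 2.62 at 2h, 2.75 and 2.69 at 4h, 2.77 and 3.03 at 8h and 3.07 and 3.07 at 24h. The 2 DMSO arrays were the highest of the 16 and the 0h arrays were among the lowest. Pfkm fell by 0.67 ± 0.13 in 0h against DMSO (adjusted p = 0.0281) and rose by 0.42 ± 0.13 in 24h against 0h (adjusted p = 0.0458), a 1.34-fold difference. These comparisons share the 0h arrays. Neither Pfkm call held without any 1 of its 4 arrays, where the adjusted p ran between 0.0831 and 0.187 for 0h against DMSO and between 0.123 and 0.171 for 24h against 0h, nor with each array centred on its median. Pfkl had levels of 4.38 and 3.80 in DMSO, 4.03 and 3.71 at 0h, 4.13 and 3.62 at 30m, 4.16 and 3.52 at 1h, 4.21 and 3.62 at 2h, 4.28 and 3.74 at 4h, 3.86 and 3.82 at 8h and 3.62 and 3.68 at 24h. Replicate 1 stood above replicate 2 in 7 of the 8 groups, and the gene was called nowhere, with a change of -0.22 ± 0.31 at 24h against 0h. Pfkp passed with the block alone, with 0.58 ± 0.47 at 4h over 0h (adjusted p = 0.572 without the block and 0.0336 with it), 1.16 ± 0.47 at 8h over 0h (adjusted p = 0.177 without the block and 0.00149 with it) and -1.13 ± 0.47 at 24h over 8h (adjusted p = 0.178 without the block and 0.00137 with it). At 24h over 0h Pfkp differed by 0.03 ± 0.47. Gpi1 differed by -0.42 ± 0.18 at 24h over 0h (adjusted p = 0.111 without the block and 0.0127 with it), and by -0.39 ± 0.18 at 24h over 8h (adjusted p = 0.214 without the block and 0.0318 with it), both called with the block alone.

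The middle of the chain runs through aldolase (Aldoa, Aldoc), triosephosphate isomerase (Tpi1), Gapdh, phosphoglycerate kinase (Pgk1), phosphoglycerate mutase (Pgam1), enolase (Eno1, Eno2) and pyruvate kinase (Pkm). None of these 9 genes was called without the block in any comparison. Gapdh, often used as a control gene, differed by -0.11 ± 0.17 at 24h against 0h, Pgk1 by -0.16 ± 0.29, Aldoa by -0.10 ± 0.30 and Pkm by 0.00 ± 0.28. The 6 other Gapdh probes differed by between -0.31 and -0.16 in the same comparison. Tpi1 differed by -0.59 ± 0.38 at 8h over 0h (adjusted p = 0.408 without the block and 0.023 with it) and by -0.51 ± 0.38 at 24h over DMSO (adjusted p = 0.457 without the block and 0.0339 with it). Eno1 differed by -0.44 ± 0.21 at 24h over DMSO (adjusted p = 0.236 without the block and 0.0102 with it). Of the 17 enzymes of the chain, the 14 not called at 24h against 0h differed by between -0.42 and 0.27, with a median of -0.07.

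Lactate dehydrogenase is a tetramer of subunits encoded by Ldha, which predominates where pyruvate is turned to lactate, and Ldhb, which predominates in tissues that oxidise lactate. Ldhb had levels of 6.79 and 6.58 in DMSO, 6.96 and 6.97 at 0h, 6.99 and 6.97 at 30m, 7.08 and 6.91 at 1h, 6.96 and 6.93 at 2h, 6.81 and 6.89 at 4h, 6.17 and 6.65 at 8h and 3.52 and 5.40 at 24h. The arrays of 0h to 4h lay between 6.81 and 7.08, and the 24h arrays, though far apart from each other, both lay below every other array. Ldhb fell by 2.50 ± 0.44 at 24h against 0h (adjusted p = 0.00297), 5.67-fold lower, the largest change of the list in that comparison. That SE pools the spread of all 8 groups, and a fit of only the 4 arrays compared did not keep the call. Without 24h replicate 1 the change was -1.57 (adjusted p 0.00219), which still passed, and the call held without each of the other 3 arrays. Ldhb also fell by 1.95 ± 0.44 at 24h against 8h (adjusted p = 0.0233) and by 2.22 ± 0.44 at 24h against DMSO (adjusted p = 0.0117). Without 24h replicate 1 these changes were -1.01 and -1.29. The first did not hold without 8h replicate 2 (adjusted p 0.118) and the second not without DMSO replicate 1 (adjusted p 0.0861). Ldha had levels of 9.17 and 8.73 in DMSO, 8.69 and 8.55 at 0h, 8.72 and 8.61 at 30m, 8.84 and 8.60 at 1h, 8.84 and 8.58 at 2h, 9.06 and 8.60 at 4h, 8.87 and 8.51 at 8h and 8.77 and 8.58 at 24h. Its highest arrays on either slide were those of DMSO, and it was called in no comparison, with 0.06 ± 0.21 at 24h over 0h. The other Ldha probes differed by 0.29 and 0.11 at 24h, so all 3 lay slightly above 0. The difference between the changes of Ldhb and Ldha was not itself tested.

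**Figure D3:**
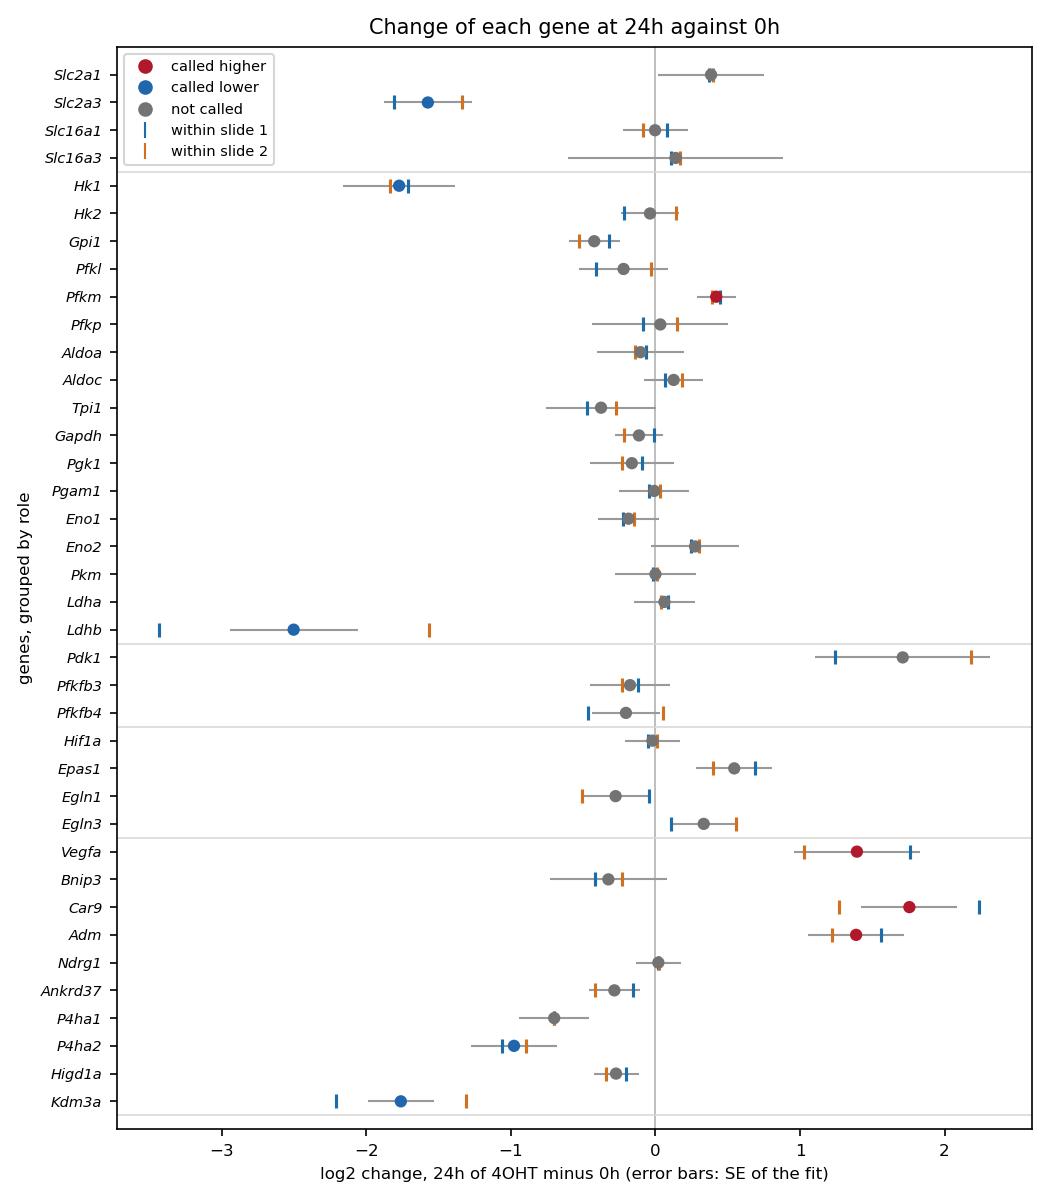
Log2 change at 24h over 0h (x axis) for each of the 38 tested genes (y axis, grouped by role), with the standard error of the fit as bars, red and blue points for genes called higher and lower without the block, grey points for the rest, and ticks for the change within each slide. Ldhb lies lowest at -2.50 and Car9 highest at 1.76, and most enzymes of the chain lie near 0.

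Pdk1 encodes a kinase that shuts the pyruvate dehydrogenase gate into mitochondria, and Pfkfb3 and Pfkfb4 encode enzymes that make an activator of phosphofructokinase. Pdk1 had levels of 4.10 and 3.73 in DMSO, 2.60 and 1.36 at 0h, 2.48 and 1.36 at 30m, 2.43 and 1.28 at 1h, 3.02 and 1.65 at 2h, 3.42 and 2.46 at 4h, 3.41 and 3.03 at 8h and 3.84 and 3.54 at 24h. On each slide the DMSO array was the highest, the 0h, 30m and 1h arrays were the lowest, and each later array stood above that of 1h. Slide 1 exceeded slide 2 in all 8 groups. Pdk1 was called nowhere without the block, and with it in 4 comparisons. Its difference was -1.94 ± 0.61 in 0h over DMSO (adjusted p = 0.122 without the block and 0.00263 with it), 0.96 ± 0.61 in 4h over 0h (adjusted p = 0.444 without the block and 0.0458 with it), 1.24 ± 0.61 in 8h over 0h (adjusted p = 0.267 without the block and 0.0149 with it) and 1.71 ± 0.61 in 24h over 0h (adjusted p = 0.0672 without the block and 0.00121 with it). Within slides the change of 24h over 0h was 1.24 on slide 1 and 2.18 on slide 2. At 24h over DMSO it was -0.23 ± 0.61, not called in either fit. Pfkfb3 and Pfkfb4 were called nowhere, with -0.18 ± 0.27 and -0.20 ± 0.24 at 24h over 0h.

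**Figure D4:**
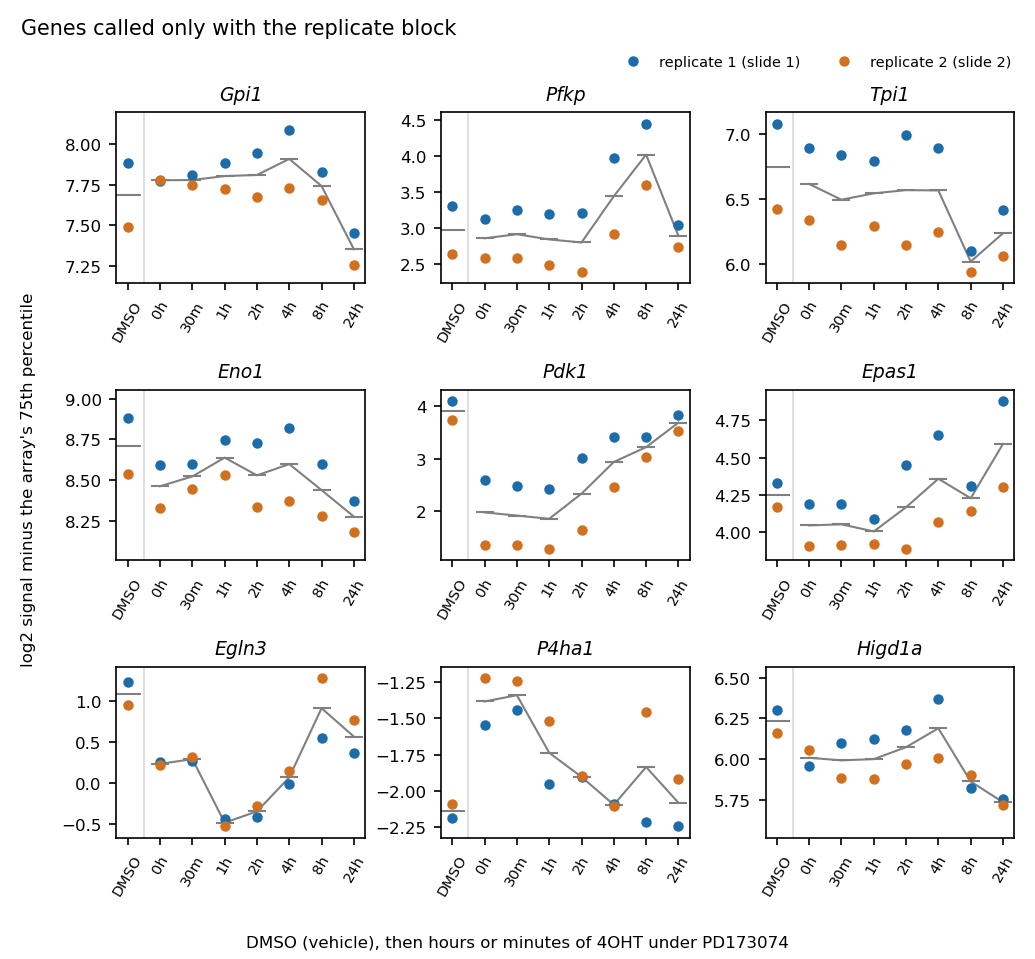
Log2 level (y axis of each panel) of the 9 genes called only with the replicate block, by group (x axis), with 1 point per array coloured by slide and a line through the group means of 0h to 24h. In Pdk1 and Pfkp the slide 1 point stands above the slide 2 point in all 8 groups.

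None of the 4 oxygen-sensing genes was called without the block in any comparison. Hif1a, which encodes the HIF alpha subunit found in most cells and is controlled mainly through protein stability, had levels of 1.72 and 1.67 in DMSO, 1.99 and 1.52 at 0h, 1.76 and 1.46 at 30m, 1.62 and 1.53 at 1h, 1.96 and 1.83 at 2h, 2.01 and 1.89 at 4h, 1.64 and 1.45 at 8h and 1.93 and 1.53 at 24h. The 16 arrays lay between 1.45 and 2.01 with no group apart from the rest, and the change at 24h over 0h was -0.02 ± 0.19, with no call in any comparison. Epas1, which encodes the related HIF-2 alpha subunit, had levels of 4.33 and 4.17 in DMSO, 4.19 and 3.91 at 0h, 4.19 and 3.92 at 30m, 4.09 and 3.92 at 1h, 4.45 and 3.89 at 2h, 4.65 and 4.07 at 4h, 4.31 and 4.15 at 8h and 4.88 and 4.30 at 24h. Its 24h array on each slide was the highest of that slide, and the difference of 24h over 0h, 0.54 ± 0.26, passed with the block alone (adjusted p = 0.169 without the block and 0.0118 with it). Of its other probes, 1 differed by 0.75 and 1 by 0.02 at 24h over 0h. Egln3, a prolyl hydroxylase that is itself a HIF target, differed by -0.86 ± 0.22 in 0h over DMSO (adjusted p = 0.0684 without the block and 0.0239 with it) and by 0.68 ± 0.22 in 8h over 0h (adjusted p = 0.0996 without the block and 0.044 with it), both called with the block alone. It stood at -0.44 and -0.53 at 1h, against 0.25 and 0.21 at 0h, a difference of -0.72 ± 0.22 that was not called in either fit. Egln1, the main oxygen sensor of the family, was dim and was called nowhere, with -0.28 ± 0.24 at 24h over 0h.

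Among the further hypoxia genes, 3 of the 10 tested rose at 24h against 0h and 2 fell, against 10.7% of all genes higher and 13.0% lower, and with the block 3 were higher and 3 lower, against 18.3% and 21.3%. Car9, which encodes a carbonic anhydrase on the cell surface that handles acid, had levels of -3.41 and -3.19 in DMSO, -3.51 and -3.16 at 0h, -3.89 and -3.13 at 30m, -4.01 and -3.44 at 1h, -3.78 and -3.36 at 2h, -4.09 and -3.75 at 4h, -3.75 and -3.18 at 8h and -1.27 and -1.88 at 24h. The 24h arrays were the highest, and the other 14 lay between -4.09 and -3.13. Car9 rose by 1.76 ± 0.33 against 0h (adjusted p = 0.00406), 3.38-fold, and the call held without each of the 4 arrays. Car9 was dim, and with normexp background correction its change was 1.03 and was still called. Vegfa, the main growth factor of blood vessels, had levels of 0.79 and 0.30 in DMSO, 0.81 and 0.41 at 0h, 0.66 and 0.47 at 30m, 0.48 and 0.07 at 1h, 1.14 and 0.24 at 2h, 1.08 and 0.19 at 4h, 1.34 and 0.85 at 8h and 2.57 and 1.44 at 24h. At 24h it rose by 1.39 ± 0.44 against 0h (adjusted p = 0.0426), 2.63-fold, and on both slides the 24h array was the highest. Without 24h replicate 1 the change of Vegfa was 0.83 (adjusted p 0.314), and the call was also lost without 0h replicate 1 (0.0895) or 0h replicate 2 (0.195). A second Vegfa probe differed by 1.89 in the same comparison. Adm, which encodes the secreted vasodilator adrenomedullin, had levels of -2.88 and -2.66 in DMSO, -3.54 and -3.13 at 0h, -3.83 and -3.18 at 30m, -3.68 and -3.79 at 1h, -3.55 and -3.29 at 2h, -3.04 and -3.59 at 4h, -3.26 and -2.24 at 8h and -1.98 and -1.91 at 24h. It rose by 1.39 ± 0.33 at 24h against 0h (adjusted p = 0.0132), with both 24h arrays above the other 14. Adm was also dim, and with normexp correction its change was 0.90 and was still called. The Adm call did not hold without 24h replicate 1 (adjusted p 0.0655), 24h replicate 2 (0.0544) or 0h replicate 1 (0.0925).

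Kdm3a, a histone demethylase, and P4ha2, a subunit of the collagen prolyl hydroxylase, fell at 24h. Kdm3a had levels of 4.60 and 4.59 in DMSO, 5.07 and 5.08 at 0h, 5.07 and 4.97 at 30m, 5.07 and 5.10 at 1h, 5.14 and 5.22 at 2h, 5.12 and 5.10 at 4h, 4.74 and 4.88 at 8h and 2.86 and 3.77 at 24h. The 0h to 4h arrays lay between 4.97 and 5.22 and both 24h arrays below those of every other group. The 24h arrays also lay farther apart than those of any other group, while the SE pools the spread of all 8 groups. A fit of only the 4 arrays compared did not call Kdm3a at 24h against 0h. Kdm3a fell by 1.76 ± 0.23 against 0h (adjusted p = 0.000608), 3.39-fold lower, and the call held without each of the 4 arrays. P4ha2 had levels of 0.37 and 0.55 in DMSO, 0.85 and 1.24 at 0h, 0.92 and 1.06 at 30m, 0.70 and 0.88 at 1h, 0.63 and 0.75 at 2h, 0.45 and 0.82 at 4h, 0.00 and 0.98 at 8h and -0.21 and 0.34 at 24h. It fell by 0.98 ± 0.30 at 24h against 0h (adjusted p = 0.0382), while 8h replicate 2, at 0.98, stood within the 0h values. That call was lost without 24h replicate 1 (adjusted p 0.257), 0h replicate 1 (0.0669) or 0h replicate 2 (0.202). P4ha1, a related isoform, passed with the block alone in 3 comparisons, with 0.76 ± 0.24 in 0h over DMSO (adjusted p = 0.132 without the block and 0.0192 with it), -0.71 ± 0.24 in 4h over 0h (adjusted p = 0.147 without the block and 0.0252 with it) and -0.70 ± 0.24 in 24h over 0h (adjusted p = 0.063 without the block and 0.0104 with it). Higd1a, a mitochondrial protein of the hypoxia response, differed by -0.50 ± 0.16 in 24h over DMSO (adjusted p = 0.0679 without the block and 0.0167 with it), with the block alone.

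Ndrg1, a stress-response gene that hypoxia is known to induce, was the gene of the list called at 4h. It had levels of 1.80 and 1.69 in DMSO, 2.07 and 2.10 at 0h, 1.62 and 2.06 at 30m, 1.87 and 1.59 at 1h, 1.36 and 1.32 at 2h, 0.65 and 0.50 at 4h, 2.19 and 2.11 at 8h and 2.09 and 2.13 at 24h. The 4h arrays were the lowest of all, the 2h arrays lay next above them, and the 8h and 24h arrays were near the 0h levels. Ndrg1 fell by 1.51 ± 0.15 at 4h against 0h (adjusted p = 0.00179), 2.85-fold lower, and the call held without each of the 4 arrays. At 2h the change was -0.74 ± 0.15 (adjusted p = 0.235), at 8h 0.07 ± 0.15 and at 24h 0.02 ± 0.15. Bnip3, which directs the removal of mitochondria, had levels of 6.04 and 5.57 in DMSO, 5.77 and 5.24 at 0h, 5.79 and 5.27 at 30m, 5.39 and 4.77 at 1h, 5.57 and 4.64 at 2h, 5.35 and 4.37 at 4h, 4.89 and 5.09 at 8h and 5.35 and 5.01 at 24h. Slide 1 exceeded slide 2 in 7 of the 8 groups, and no comparison called it, its lowest change against 0h being -0.65 ± 0.40 at 4h. All 3 Bnip3 probes had changes below 0 at 4h, between -0.87 and -0.65. Ankrd37, an ankyrin repeat gene induced by HIF, was called nowhere, with -0.28 ± 0.18 at 24h over 0h.

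Set against 8h instead of 0h, the 24h arrays gave 1 riser and 3 genes that fell of the list, against 8.81% of all genes called (5.22% higher and 3.59% lower), and with the block 2 were higher and 5 lower, against 22.9% (12.7% higher and 10.2% lower). Car9 rose by 1.89 ± 0.33 (adjusted p = 0.00767), Slc2a3 fell by 1.32 ± 0.31 (adjusted p = 0.0251), and Kdm3a fell by 1.50 ± 0.23 (adjusted p = 0.00409), with Ldhb as given above. The Slc2a3 call was lost without any 1 of the 4 arrays, at adjusted p-values of between 0.0524 and 0.166, and with median centring (0.129), and that of Car9 without 24h replicate 1 (0.0752). Set against DMSO, which had neither agent, 1 gene rose and 2 fell, against 11.3% of all genes (6.56% higher and 4.78% lower), and with the block 2 were higher and 6 lower, against 26.0% (12.5% higher and 13.5% lower). Car9 rose by 1.72 ± 0.33 (adjusted p = 0.00988) and Kdm3a fell by 1.28 ± 0.23 (adjusted p = 0.00735). Without DMSO replicate 1 neither passed, at 0.081 for Car9 and 0.0571 for Kdm3a, and Car9 did not without 24h replicate 1 (0.108), where the change of Kdm3a was -0.82 and still passed. With normexp correction Car9 was still called, with 0.93 over 8h and 0.87 over DMSO. Vegfa differed by 0.91 ± 0.44 over 8h (adjusted p = 0.248 without the block and 0.0141 with it) and by 1.45 ± 0.44 over DMSO (adjusted p = 0.0594 without the block and 0.00162 with it), and Slc2a3 by -0.90 ± 0.31 over DMSO (adjusted p = 0.0917 without the block and 0.0204 with it), called with the block alone. The 24h comparisons share the 24h arrays.

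**Figure D5:**
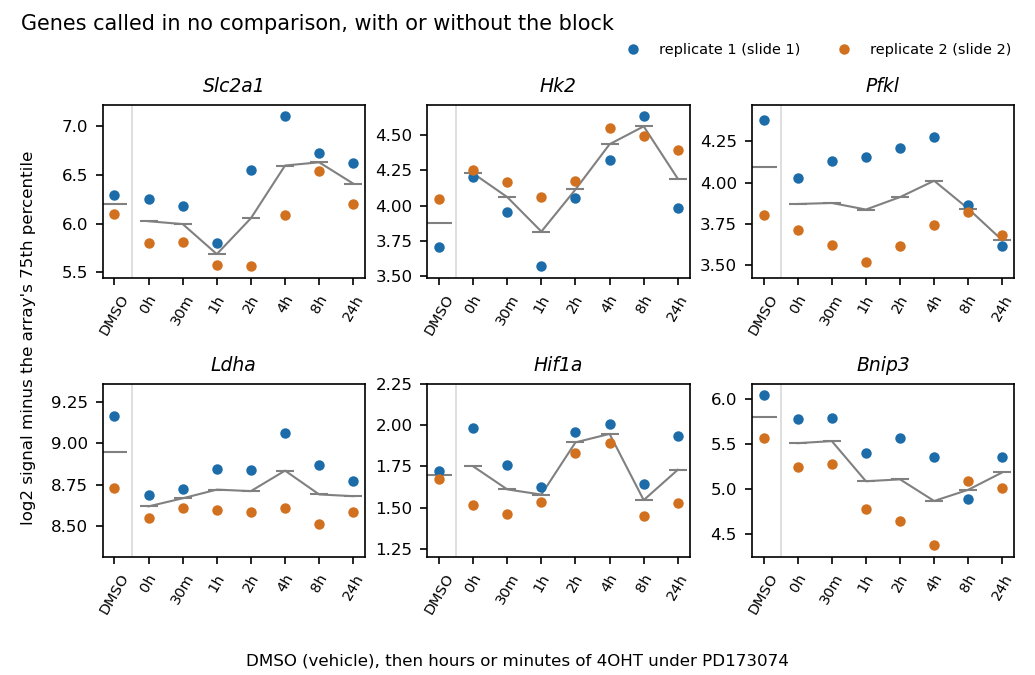
Log2 level (y axis of each panel) of Slc2a1, Hk2, Pfkl, Ldha, Hif1a and Bnip3, 6 of the 19 genes called in neither fit, by group (x axis), with 1 point per array coloured by slide and a line through the means of 0h to 24h. In Slc2a1, Pfkl, Ldha, Hif1a and Bnip3 the replicates of a group often lie farther apart than the means of neighbouring groups.

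In all, 10 genes of the list were called without the block in at least 1 comparison, 9 more with the block alone and 19 in neither fit. The matching count over all genes tested was not made, so these counts are not read as a result about the list. At 24h against 0h alone, 23.7% of all genes were called without the block and 39.5% with it. The 19 included Slc2a1, Hk2, Pfkl, Aldoa, Aldoc, Gapdh, Pgk1, Pgam1, Eno2, Pkm, Ldha, Pfkfb3, Pfkfb4, both lactate transporters, Hif1a, Egln1, Bnip3 and Ankrd37. Over all 9 comparisons their changes lay between -0.65 for Bnip3 and 0.60 for Slc2a1. At 1h, 26 of the 38 genes stood below 0h and 12 above, with a median change of -0.06, against 0.00 over all genes. The share of all genes below 0h was not counted, and none of the list was called at 1h. With median centring the medians were -0.15 for the list and -0.09 over all genes. Of the 9 calls at 24h against 0h, a fit of only the 4 arrays compared kept those of Slc2a3, Hk1, Car9 and Adm.

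The disagreement over which sample an array held bears on every result. The value table and the scanner files agreed on 8 arrays, replicate 1 of DMSO, 0h, 30m and 1h and replicate 2 of 2h, 4h, 8h and 24h, so that 1 array a group was undisputed and 24h could be set against 0h across slides only, with no test. Over these arrays Ldhb stood at 5.40 at 24h, against 6.96 at 0h, Kdm3a at 3.77 at 24h, against 5.07 at 0h, and Slc2a3 at 5.30 at 24h, against 6.87 at 0h. Hk1 stood at 3.16 at 24h, against 4.69 at 0h, and P4ha2 at 0.34 at 24h, against 0.85 at 0h. Car9 stood at -1.88 at 24h, against -3.51 at 0h, Adm at -1.91 at 24h, against -3.54 at 0h, Vegfa at 1.44 at 24h, against 0.81 at 0h, and Pfkm at 3.07 at 24h, against 2.62 at 0h. Ndrg1 stood at 0.50 at 4h, against 2.07 at 0h. All 10 of these differences had the sign of the call. These arrays had also been used for the calls by which the genes were chosen, so the signs are no separate check. With the other 8 arrays given the samples of their scanner files, none of the 38 genes was called in any of the 9 comparisons, and at 24h over 0h Ldhb differed by -0.73, Kdm3a by -0.65, Slc2a3 by -1.16, Car9 by 1.14 and Vegfa by -0.19. The share of all genes called under that assignment was not counted, so the lost calls cannot be read as particular to the list.

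Cell type markers also moved at 24h, and some before it, and their part in the result was not tested. Beside the counts at 24h against 0h, 10.7% of all genes rose and 13.0% fell. Of 8 stem cell markers, Nanog fell by 4.64 ± 0.80, Esrrb by 2.00 ± 0.37 and Zfp42 by 1.30 ± 0.32 on the log2 scale at 24h against 0h, and Utf1 rose by 1.78 ± 0.42. The summed level of the 8, on a linear scale where 1 is an array's 75th percentile, was 635 and 667 at 24h, against 758 and 722 at 0h. Such a sum is weighted to the brightest probes. Here that was Dppa5a, at log2 levels between 8.21 and 8.74, while Nanog reached at most 4.70. Of 6 primitive endoderm markers Gata6 rose by 4.76 ± 0.53 and Pdgfra at least 2.70-fold, and the other 4 were not called. The changes of 3 of the 6 lay below 0, the lowest at -1.47, and Dab2 was called lower with the block alone. The summed level, also weighted to the brightest probes, was 3.22 and 1.29 at 24h, against 0.474 and 0.434 at 0h. Of 6 mesoderm and trophectoderm markers, 5 were tested and 3 rose at 24h, Hand1 by 4.64 ± 0.30, Mesp1 at least 4.80-fold and Cdx2 at least 12.3-fold, and the summed level was 1.91 and 1.20 at 24h, against 0.279 and 0.275 at 0h. A bound of this kind sets the mean of the 24h arrays against, on each 0h array, the higher of the lowest signal well above background and the probe's own. Mixl1 stayed below background on all 16 arrays. Of the 5 tested, Cdx2 and Hand1 had risen by 4h, and Mesp1, Cdx2, Hand1 and Eomes by 8h, both against 0h. Of all genes 1.44% rose at 4h and 3.13% at 8h. The summed level of the mesoderm and trophectoderm markers was 1.73 and 1.14 at 4h and 2.28 and 1.13 at 8h. No stem cell or primitive endoderm marker was called at 4h or 8h without the block. None of 4 tested fibroblast markers was called, with a summed level of 0.476 and 0.372 at 24h, against 0.370 and 0.382 at 0h, and Lum and Postn were not above background on any array. The 24h replicate with the lower Nanog, replicate 1 at -1.75 against 1.58 in replicate 2, had the lower level of Ldhb, Kdm3a, Slc2a3, Hk1, P4ha2 and Adm and the higher of Vegfa and Car9, while Pfkm stood at 3.07 and 3.07. Of these, Hk1 and P4ha2 were dimmer and Vegfa brighter on slide 1 in all 8 groups.

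Other genes of the same pathways were read from 5 lists of named genes, and values are given for those called without the block, in each comparison at most the 5 with the largest changes over the 5 lists. To be read beside each count, 10.7% of all genes rose and 13.0% fell at 24h against 0h, while 18.3% and 21.3% did so in the fit with the block. Of 30 further HIF targets tested, 4 rose and 2 fell at 24h against 0h, and with the block 7 were higher and 7 lower. The risers were Flt1, Ddit4, Vldlr and Jmjd6, and those that fell were Loxl2 and Kdm4b. Flt1, a receptor for Vegfa, rose by 3.52 ± 0.57 (adjusted p = 0.0082) at 8h and by 3.54 ± 0.57 (adjusted p = 0.00184) at 24h against 0h, and by 4.26 ± 0.57 (adjusted p = 0.00196) at 24h against DMSO. Its levels were -0.28 and -1.23 at 8h, against -4.90 and -3.64 at 0h, and at 24h they were -0.23 and -1.24 and lay close to those of 8h. Ddit4, an inhibitor of mTOR signalling, rose by 2.13 ± 0.45 (adjusted p = 0.00702) at 24h against 0h, and Vldlr, a lipoprotein receptor, by 1.73 ± 0.52 (adjusted p = 0.036). Ppp1r3c, a glycogen-targeting subunit of a phosphatase, was at least 1.34-fold lower at 4h against 0h (adjusted p = 0.0427), with no 4h array above background. At 24h against DMSO Cxcr4, a chemokine receptor, was at least 2.09-fold higher (adjusted p = 0.0125), with no DMSO array above background, and Rab20, a small GTPase, fell by 0.93 ± 0.26 (adjusted p = 0.047).

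Of 13 HIF regulators and partners, 1 rose and 1 fell at 24h against 0h, and with the block 1 was higher and 5 lower. Beside this and each count at 24h against 0h below, 10.7% of all genes rose and 13.0% fell. With the block the shares were 18.3% and 21.3%. At 24h against DMSO 6.56% of all genes rose and 4.78% fell. Siah2, a ubiquitin ligase that acts on the Egln enzymes, rose by 1.80 ± 0.26 (adjusted p = 0.00114) against 0h and by 1.41 ± 0.26 (adjusted p = 0.00854) against DMSO, and Cited2 was the gene that fell against 0h. Of 30 further genes of glycolysis, gluconeogenesis and glycogen, 1 rose and 4 fell at 24h, and with the block 1 was higher and 10 lower. The riser was G6pc3, and Ldhc, Slc2a8, Tigar and Fbp1 fell. Fbp1, a gluconeogenic phosphatase, fell by 1.38 ± 0.37 (adjusted p = 0.023) at 24h and rose by 1.67 ± 0.37 (adjusted p = 0.0401) in 0h against DMSO. Tigar, a phosphatase that draws sugar away from glycolysis, rose by 0.82 ± 0.15 (adjusted p = 0.0198) in 0h against DMSO and fell by 0.61 ± 0.15 (adjusted p = 0.0388) at 8h against 0h. Eno3, an enolase of muscle, rose by 0.66 ± 0.15 (adjusted p = 0.0229) at 24h against 8h. Of 13 genes of pyruvate entry into mitochondria, Pdhb and Mpc1 rose and Pdk4 fell at 24h against 0h and against DMSO, and with the block 2 were higher and 2 lower against 0h. Pdhb, a subunit of pyruvate dehydrogenase, rose at 8h by 0.89 ± 0.23 (adjusted p = 0.0476). Pdk4, a second kinase that inhibits that enzyme, fell at 24h against 8h by 0.99 ± 0.25 (adjusted p = 0.0324) and against DMSO by 0.92 ± 0.25 (adjusted p = 0.0383). Of 7 pentose phosphate genes, 1 fell at 24h against 0h, and with the block 2 were higher and 1 lower. That gene was Rpe, an epimerase, which rose at 4h by 0.89 ± 0.13 (adjusted p = 0.0115) and fell at 24h against 8h by 0.72 ± 0.13 (adjusted p = 0.00885). Median log2 changes at 24h against 0h were -0.14 for the further HIF targets, -0.05 for the regulators and -0.23 for the further glycolysis genes, against -0.01 over all genes.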

How the data were processed

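RNA was hybridised in 1 colour to Agilent mouse arrays, 2 in each of 8 groups. Per the file headers, the deposited intensity values were read from scans with Feature Extraction 11.0.1.1 (probes annotated on mm9), which also subtracted background to give the processed signal. The dye in the labels is Cy5, yet the files record a green channel. For 4h, minutes stand in 1 label and hours in the title and time point, which were used. Scanner files were matched to the deposited value table spot by spot: within 0.6%, 100% of spots matched 1 column, the next best column matching at most 4.99%. For 8 of 16 arrays that column carried another sample's heading than the file, and the headings were followed.

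Signals were taken to log2 and centred on each array's 75th percentile. Control spots and outlier flags were dropped, and of 55681 probes 27656 named 1 gene. The gene's brightest probe was kept, and the gene was tested where some group had that probe well above background on both its arrays. limma 3.58.1 (R 4.3.3) fitted a mean for each of the 8 groups to the 16 arrays together (residual degrees of freedom 8) and made 9 comparisons, with Benjamini-Hochberg adjustment over all genes tested and a threshold of 0.05. The code was tested on simulated data. Deviations of same-numbered arrays from their group means correlated above 0.1 in 28 of 28 pairs of groups (0.329 to 0.659, median 0.528). Arrays with the same replicate number, which shared a slide, thus varied together, and a fit with that number as a block is given beside the first. The labels used here do not say whether the samples themselves were paired. Replicates correlated at 0.982 to 0.990.

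The members and the further lists were chosen with earlier results of these data known. All 39 genes are named. Every array's value is given for genes called without the block and for Slc2a1, Slc2a3, Hk2, Pfkl, Ldha, Pdk1, Hif1a, Epas1, Vegfa, Bnip3 and Ndrg1. From other lists, values are given for genes called without the block, at most 5 per comparison by size of change over those lists, further called genes at 24h against 0h or DMSO are named without values, having been chosen after their values were seen, and cell type markers are named freely. Alternatives were the block, the arrays as attached to their scanner files, the value table, normexp background correction (offset 50), quantile normalization, median centring, no dim filter, the mean over a gene's probes, a fit of only the groups compared, and leaving out each replicate.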

Additional observations from a re-analysis of the deposited data

How the results depend on the processing

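The 10 genes called without the block gave 18 calls over the 9 comparisons, and over all alternatives 166 of their values kept direction and call, 67 kept direction without the call and 1 turned. All 18 calls were kept with the value table, the replicate block, normexp correction, quantile normalization and the mean over a gene's probes. Median centring kept 14, no filter on dim probes 15 and a fit of only the groups compared 4. With the arrays as attached to the scanner files none was kept: 0 of the 38 genes were called higher or lower at 4h, 24h, 0h over DMSO, 24h over 8h or 24h over DMSO, and Vegfa at 24h over 0h was -0.19 (adjusted p = 0.917). Shares of all genes called were counted for the fits without and with the block, and not for the other alternatives. The cause of the shifts under these alternatives was not tested. The fit of only the groups compared had fewer arrays and also took the spread from those groups alone. With the replicate block the counts higher and lower were 2 and 3 at 4h, 3 and 2 at 8h, 2 and 3 at 0h over DMSO, 2 and 5 at 24h over 8h and 2 and 6 at 24h over DMSO, and the block ended no call. Normexp correction called 1 gene lower at 8h. Quantile normalization called 1 higher at 0h over DMSO and 2 higher at 24h over DMSO. Median centring, which moved the median change of all genes at 2h over 0h to -0.10, against 0.04, called 1 lower at 8h, 2 higher at 24h over 0h, and 1 higher and 0 lower at 0h over DMSO. No filter on dim probes called 2 higher at 24h over 0h. The mean over probes called 1 higher at 8h and 2 lower at 0h over DMSO. The fit of only the groups compared called 0 lower at 4h, 2 higher and 2 lower at 24h over 0h, 0 lower at 0h over DMSO, and 0 higher and 0 lower at 24h over 8h and at 24h over DMSO. Leaving out each replicate in turn gave 0 to 1 higher and 0 to 3 lower at 8h, 1 to 2 higher and 3 to 5 lower at 24h over 0h, 0 lower at 0h over DMSO, 0 to 2 higher and 1 to 2 lower at 24h over 8h, and 0 to 2 higher and 0 to 2 lower at 24h over DMSO, and over these fits 43 calls were kept and 29 lost. With 2 arrays a group, a difference that was not called is not shown to be absent. The 38 genes were marked well above background on all 16 arrays, but the size of a change in a dim gene depended on the background correction: with normexp the change of Car9 was 1.03 at 24h over 0h, 0.93 over 8h and 0.87 over DMSO, and that of Adm 0.90 at 24h over 0h.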
